A study of Rattus norvegicus with 44 samples.

Results

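The genes described here act in omega-oxidation and beta-oxidation of fatty acids and are known targets of the nuclear receptor PPARA: *Cyp4a1*, *Cyp4a3*, *Ehhadh*, *Eci1*, *Decr2*, *Acot2* and *Acot1*. Each was read through the probe sets that the platform annotation gives to that gene and to no other, in all 7 dose groups of liver and kidney. All 7 genes were found, out of 14217 genes named on the array, and they hold 10 of the 31042 probe sets tested. *Acot2* has 3 probe sets, *Eci1* has 2 and each of the other genes has 1, and where there are several the brightest in the organ stands for the gene. A further 2 probe sets, shared by *Acot2* with *Acot1* and by *Cyp4a3* with *Cyp4a2*, do not count as members and are named as shared. The label of a peroxisomal set fits *Ehhadh* and *Decr2*, whereas the protein of *Eci1* and that of *Acot2* are known from mitochondria and that of *Acot1* from the cytosol.

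The samples are total RNA of liver (27 arrays) and kidney (17 arrays) from male Harlan Sprague Dawley rats, 6 to 8 weeks old when they were assigned to groups. They were dosed by gavage on 5 days with crude MCHM, a coal-cleaning liquid based on the alcohol methylcyclohexanemethanol, in corn oil at 5 mL/kg, and were killed on the following day. The dose was 0 (corn oil vehicle), 0.1, 1, 10, 100, 300 or 500 mg/kg. Liver groups hold 4 arrays, except 3 at 0.1 mg/kg, and kidney groups hold 3 arrays at 0, 300 and 500 mg/kg and 2 at each other dose. The titles call them biological replicates, and their small number limits how precise each value can be. All values are log2 expression values, and differences are between group means on that scale, each with the standard error (SE) that limma gives. A probe set is called when its Benjamini-Hochberg adjusted p over the 31042 probe sets is below 0.05 in limma.

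PPARA is a receptor for fatty acids and their derivatives that binds DNA together with RXR and is best known in the liver, where fibrate drugs activate it and make rodent peroxisomes multiply. CYP4A enzymes oxidise the far (omega) end of a fatty acid, and the dicarboxylic acids that follow are shortened in peroxisomes, where EHHADH carries out the hydration and dehydrogenation steps of beta-oxidation. DECR2 and ECI1 deal with double bonds that beta-oxidation cannot pass, and acyl-CoA thioesterases such as ACOT1 and ACOT2 release free fatty acids from coenzyme A.

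Defining genes of each organ were where the labels place them. Albumin (*Alb*) read 14.82 to 14.85 in liver, and the proximal tubule phosphate carrier *Slc34a1* read 13.05 to 13.72 in kidney and 4.77 to 5.61 in liver. Among the 44 arrays, 3 stood apart. *Xist*, the RNA of an inactivated X chromosome, was high in the replicate 2 vehicle array of both organs (8.25 in liver, 6.95 in kidney) and at most 3.27 in every other array, although all rats are labelled male. The Y-linked *Eif2s3y* read 9.26 and 10.02 in the same arrays, against 8.94 to 9.49 in the other livers and 9.35 to 9.94 in the other kidneys. *Alb* read 11.06 in kidney replicate 1 at 1 mg/kg, against 3.85 to 5.86 in the other kidney arrays, so the kidney difference at 1 mg/kg is given with and without that array. The members' differences from vehicle, and the counts over gene lists, are given with vehicle replicate 2 and then without it, the latter as ranges where nothing was called.

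The region before the transcription start was read from RefSeq (build GRCr8) for the 6 members that the table holds, and *Cyp4a1* is named only. Each window is the 250 bases before the start, written 5′ to 3′ on the gene's strand. It was searched on both strands for AGGTCA, the hexamer bound by nuclear receptors, and for AGGTCANAGGTCA, the spaced pair of hexamers bound by PPARA with RXR, which contains the hexamer. The windows of *Eci1* (chr10:13961000-13961249, plus strand), *Ehhadh* (chr11:92746159-92746408, plus strand) and *Cyp4a3* (chr5:134352237-134352486, minus strand) are shown because the first 2 genes rose at the top dose and the last did not pass the test. Capitals mark the hexamer.
Eci1: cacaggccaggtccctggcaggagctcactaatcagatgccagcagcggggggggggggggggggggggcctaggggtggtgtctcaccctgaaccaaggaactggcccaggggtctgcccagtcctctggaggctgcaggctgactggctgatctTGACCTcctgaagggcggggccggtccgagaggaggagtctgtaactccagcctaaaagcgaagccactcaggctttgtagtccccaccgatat
Ehhadh: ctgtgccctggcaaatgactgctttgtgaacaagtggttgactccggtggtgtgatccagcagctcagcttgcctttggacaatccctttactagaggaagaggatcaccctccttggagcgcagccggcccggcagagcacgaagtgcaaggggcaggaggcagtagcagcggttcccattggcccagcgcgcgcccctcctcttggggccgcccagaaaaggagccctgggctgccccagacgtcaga
Cyp4a3: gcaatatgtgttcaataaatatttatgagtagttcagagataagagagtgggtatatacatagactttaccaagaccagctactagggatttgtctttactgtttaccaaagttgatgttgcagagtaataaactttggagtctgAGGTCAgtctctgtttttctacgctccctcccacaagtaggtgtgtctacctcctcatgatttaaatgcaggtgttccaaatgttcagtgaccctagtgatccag

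The exact hexamer was in 2 of the 6 windows: in *Cyp4a3* it starts 105 bases before the transcription start on the gene's strand, and in *Eci1* it lies 94 bases before it on the opposite strand. Of the 33469 rat promoter windows of the same length, 14.1% held it. The spaced pair was in 0 of the 6 windows with up to 2 mismatches, a match that 3.15% of all windows held. With up to 3 mismatches 1 of the 6 held it, *Cyp4a3*, as did 21.4% of all windows. A match is a string of letters and not a measured binding site. Bases farther from the start were not searched, and 6 windows are too few to show that these genes lack the pair.

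In liver, 4 of the 7 genes rose at 500 mg/kg against vehicle: *Cyp4a1*, *Ehhadh*, *Decr2* and *Eci1*. Their differences ran from 0.43 to 0.87, or 1.35-fold to 1.83-fold, with 4 arrays in each group. Over the whole array 0.119% of probe sets were called higher and 0.177% in either direction in this comparison. The members were chosen with earlier results of these data known, so these shares give scale and do not test the set. The other 3 genes also had positive differences, from 0.12 to 0.35, and did not pass the test. The median over the 7 was 0.43, against 0.01 over all 14217 genes.

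Of the 2 omega-hydroxylases, *Cyp4a1*, which starts omega-oxidation of medium and long chains, read 11.18, 10.77, 10.98 and 10.64 in the 4 vehicle livers. Its values were 11.07, 11.58, 10.88 and 10.91 in the livers at 300 mg/kg. They were 11.66, 11.70, 11.64 and 11.75 in those at 500 mg/kg. The top-dose livers lay close together and above every other liver, with 1 liver at 300 mg/kg (11.58) just below them. The rise over vehicle was 0.79 (SE 0.15, adjusted p = 0.0249), or 1.73-fold. The lower doses had group means of 10.88 to 11.18 and no order by dose.

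*Cyp4a3*, its close relative, read 11.43, 10.90, 10.87 and 10.90 in the vehicle livers and 11.36, 10.83, 11.57 and 10.82 at 500 mg/kg. The top-dose livers fell into a high and a low pair, and the vehicle range lay within the range they spanned. The difference was 0.12 (SE 0.15, 95% interval −0.19 to 0.43, adjusted p = 0.879), and 0.08 (0.953) without vehicle replicate 2. Its highest group means were at the lowest doses: 11.40 ± 0.13 (SD, n = 3) with 0.1 mg/kg, 11.45 ± 0.14 (n = 4) with 1 mg/kg and 11.40 ± 0.11 (n = 4) with 10 mg/kg, against 11.03 ± 0.27 (n = 4) in vehicle and 10.92 ± 0.27 (n = 4) at 300 mg/kg. Those 3 dose groups did not differ among themselves beyond their spread. The fit of 300 and 500 mg/kg against 0.1, 1 and 10 mg/kg gave −0.38 (SE 0.10, adjusted p = 0.0767), which missed the threshold. The probe set shared with *Cyp4a2* differed by −0.05 between 500 mg/kg and vehicle.

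*Ehhadh*, the peroxisomal bifunctional enzyme, read 11.25, 10.76, 10.72 and 10.68 in the vehicle livers. It read 10.96, 11.17, 11.00 and 10.81 in those given 300 mg/kg. The livers given 500 mg/kg read 11.55, 11.51, 11.52 and 11.81. Every top-dose liver lay above every other liver, the highest of which read 11.35. The rise was 0.74 (SE 0.13, adjusted p = 0.0126), or 1.68-fold. From vehicle to 300 mg/kg its group means lay between 10.85 and 11.08, with SDs of 0.11 to 0.27, so no neighbours among them differed beyond their spread.

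*Decr2*, the peroxisomal dienoyl-CoA reductase, read 10.56, 10.17, 10.09 and 10.21 in the vehicle livers, 10.34, 10.40, 10.37 and 10.30 in those given 300 mg/kg, and 10.73, 10.59, 10.73 and 10.72 in those given 500 mg/kg. The top-dose and vehicle groups did not overlap, but the lowest top-dose liver (10.59) was close to the highest vehicle liver (10.56). The rise was 0.43 (SE 0.09, adjusted p = 0.0344), or 1.35-fold, the smallest of the 4.

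*Eci1*, the enoyl-CoA isomerase, had the smallest p of the 7 genes and the third smallest of all probe sets. It read 11.34, 10.87, 11.07 and 10.99 in the vehicle livers, 11.34, 11.33, 11.15 and 11.12 in those given 300 mg/kg, and 11.92, 12.05, 11.86 and 11.92 in those given 500 mg/kg. The top-dose livers again lay above all others. The rise was 0.87 (SE 0.11, adjusted p = 3.14e-04), or 1.83-fold. In order of group mean, 500 mg/kg (11.94 ± 0.08, SD, n = 4) was followed by 10 mg/kg (11.53 ± 0.19, n = 4), 0.1 mg/kg (11.32 ± 0.08, n = 3), 1 mg/kg (11.25 ± 0.19, n = 4), 300 mg/kg (11.23 ± 0.12, n = 4), 100 mg/kg (11.15 ± 0.16, n = 4) and vehicle (11.07 ± 0.20, n = 4). From 0.1 mg/kg downwards in that order, neighbours differed by less than their SDs. At 10 mg/kg 1 liver read 11.80, just under the top-dose range. A dim probe set of *Eci1*, between 3.39 and 4.16 in liver, differed by −0.39 between 500 mg/kg and vehicle and did not pass (adjusted p = 0.306).

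**Figure D1:**
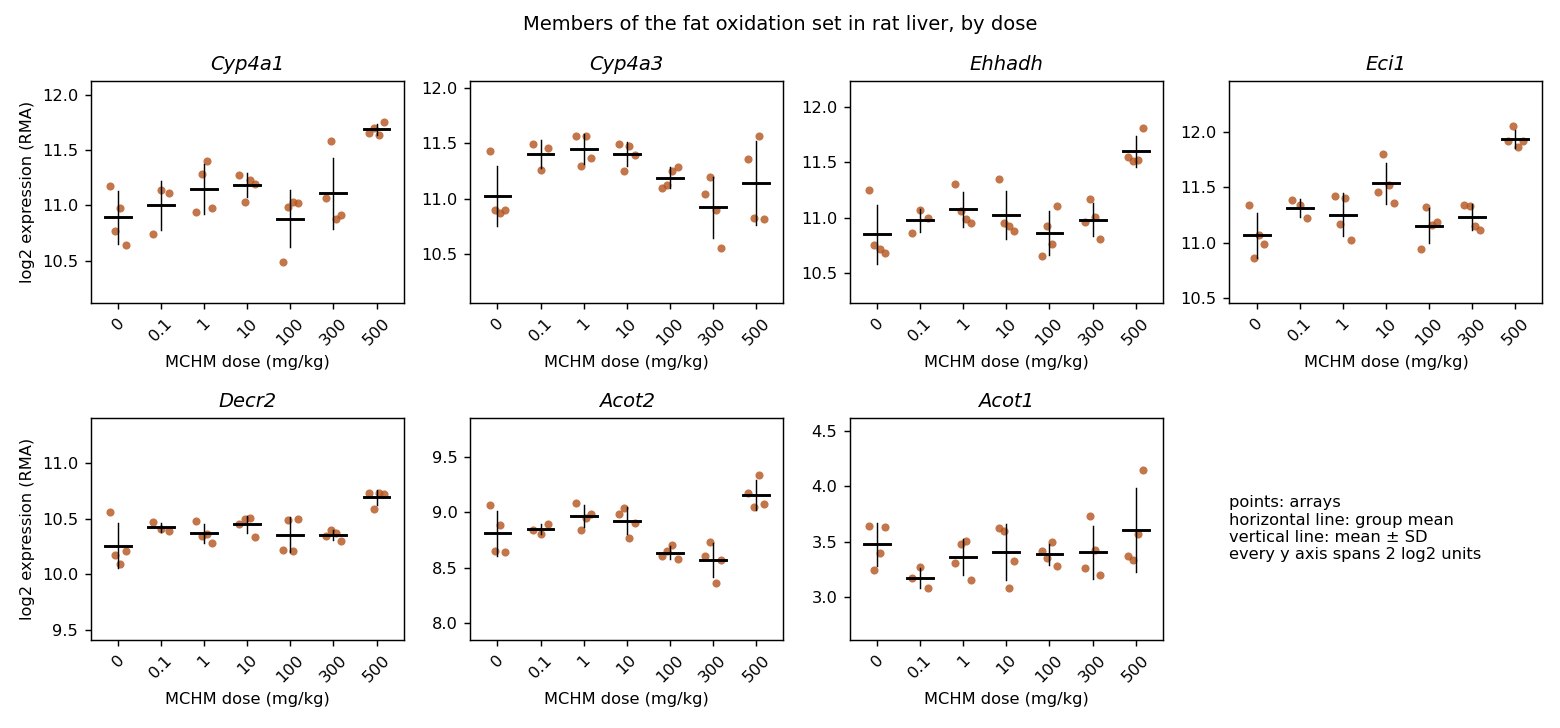
Log2 expression of the 7 genes in liver (y axis, each spanning 2 log2 units) at each dose of MCHM in mg/kg (x axis, dose groups in order and not to scale). Points are arrays, horizontal lines group means and vertical lines the mean ± SD. The 500 mg/kg points of *Cyp4a1*, *Ehhadh*, *Eci1* and *Decr2* lie above all other points, while those of *Cyp4a3*, *Acot2* and *Acot1* overlap vehicle.

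For *Cyp4a1*, *Ehhadh*, *Eci1* and *Decr2* all 4 livers at 500 mg/kg lay above all 4 vehicle livers, as for 3.4% of all probe sets. For the same 4 genes they lay above all 23 other livers, as for 0.2% of all probe sets. With 1 array left out, *Eci1* passed in all 8 fits (differences 0.80 to 0.96, adjusted p at most 0.00297). In a fit of only the 2 groups compared, none of the 4 passed: the adjusted p was 0.0523 for *Eci1*, 0.0771 for *Cyp4a1*, 0.18 for *Ehhadh* and 0.359 for *Decr2*. Without liver vehicle replicate 2 the difference was 0.80 for *Eci1* (adjusted p = 0.00297), and it no longer passed for *Ehhadh* (0.71, adjusted p = 0.0597), *Cyp4a1* (0.75, 0.0926) or *Decr2* (0.41, 0.14), while 0.0451% of all probe sets were called. The same 3 genes missed the threshold without vehicle replicate 3 (*Ehhadh* 0.70, *Cyp4a1* 0.82, *Decr2* 0.38), without vehicle replicate 4 (0.69, 0.71, 0.42) and without 500 mg/kg replicate 4 (0.68, 0.77, 0.42), and *Cyp4a1* and *Decr2* missed it without 500 mg/kg replicate 1 (0.80, 0.42) or replicate 3 (0.81, 0.42).

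The thioesterases differed from each other in level and in organ. *Acot2* and *Acot1* lie next to each other on chromosome 6, with starts 24.4 kb apart, at chr6:109342590-109342839 and chr6:109367024-109367273 (both plus strand, the 250 bases before each start). Those windows share the base at 57 of 250 positions when set side by side without gaps, and neither holds the hexamer. The count was not set against unrelated windows, and without gaps it cannot tell how alike the windows are. The windows are shown because the 2 genes had unlike patterns.
Acot2: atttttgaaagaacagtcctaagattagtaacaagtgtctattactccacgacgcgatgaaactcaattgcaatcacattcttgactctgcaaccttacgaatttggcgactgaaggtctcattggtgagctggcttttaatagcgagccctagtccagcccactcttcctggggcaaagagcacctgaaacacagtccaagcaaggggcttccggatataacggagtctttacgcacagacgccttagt
Acot1: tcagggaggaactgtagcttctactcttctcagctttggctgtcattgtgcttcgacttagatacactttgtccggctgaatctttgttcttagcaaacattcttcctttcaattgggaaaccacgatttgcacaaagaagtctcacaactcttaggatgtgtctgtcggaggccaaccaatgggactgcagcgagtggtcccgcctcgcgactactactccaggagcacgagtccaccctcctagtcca

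*Acot2*, the mitochondrial thioesterase, read 9.06, 8.65, 8.89 and 8.64 in the vehicle livers. It read 8.61, 8.73, 8.37 and 8.57 in the livers given 300 mg/kg. At the top dose it read 9.17, 9.04, 9.34 and 9.07. The top dose overlapped vehicle through 1 vehicle liver and lay wholly above 300 mg/kg. Against vehicle the difference was 0.35 (SE 0.10, adjusted p = 0.179), and the other 2 probe sets gave 0.31 and 0.34. It was 0.29 (0.444) without vehicle replicate 2. Its group means were lowest at 300 mg/kg (8.57 ± 0.15, SD, n = 4) and 100 mg/kg (8.63 ± 0.06, n = 4), a gap within their spread.

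*Acot1*, the cytosolic thioesterase, was at the low end of the scale in liver, from 3.09 to 4.15 over the 27 arrays, and between 10.16 and 10.88 in the 17 kidney arrays. Its liver values at 500 mg/kg were 3.37, 3.34, 3.57 and 4.15, with 1 liver above the vehicle range of 3.24 to 3.64. The difference from vehicle was 0.13 (SE 0.15, adjusted p = 0.866), and 0.05 (0.969) without vehicle replicate 2. RMA compresses changes of probe sets this dim.

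The top dose was also compared with the next one below, 300 mg/kg. In that comparison only 2 of the 31042 probe sets were called (0.00644%), and both are members: *Eci1* at 0.70 (SE 0.11, adjusted p = 0.0323), or 1.63-fold, and *Acot2* at 0.59 (SE 0.10, adjusted p = 0.0323), or 1.50-fold. The set was chosen with earlier results of these data known, so it is not independent support that both calls lie in it. All 7 genes had positive differences, with a median of 0.58 against −0.00 over all genes. The differences that did not pass were 0.61 for *Ehhadh* (adjusted p = 0.157), 0.58 for *Cyp4a1* (0.22), 0.34 for *Decr2* (0.234), 0.22 for *Cyp4a3* (0.783) and 0.20 for *Acot1* (0.806). For 5 genes, *Cyp4a1*, *Ehhadh*, *Eci1*, *Decr2* and *Acot2*, the top-dose livers lay above all 300 mg/kg livers, as for 2.47% of all probe sets. The other 2 *Acot2* probe sets gave 0.64 (adjusted p = 0.102) and 0.57 (0.222), and the one shared with *Acot1* gave 0.54. Neither call held without 300 mg/kg replicate 3 or 4 or any 1 of the 500 mg/kg livers (*Eci1* 0.66 to 0.73, adjusted p 0.082 to 0.151; *Acot2* 0.52 to 0.63, 0.074 to 0.221), and *Acot2* also missed it without 300 mg/kg replicate 1 (0.60, adjusted p = 0.0566).

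At 300 mg/kg against vehicle 0 of the 7 genes were called, where 0.122% of all probe sets were. Their differences ran from −0.24 for *Acot2* (adjusted p = 0.381) to 0.22 for *Cyp4a1* (0.684), with a median of 0.10. They ran from −0.29 to 0.18 without vehicle replicate 2, with 0 members and 0 probe sets called. At 0.1, 1, 10 and 100 mg/kg no member and no other probe set was called (0%), and 1565 to 1872 probe sets had an unadjusted p under 0.05 in limma. The largest difference of a member at those doses was 0.47 for *Eci1* at 10 mg/kg (adjusted p = 0.676), or 0.40 (0.869) without vehicle replicate 2, and 0 members were called at any of these doses without that array. The slope over the dose levels, which treats the 7 doses as equal steps, called 0 members, where 0.245% of probe sets passed. The steepest slopes per level were 0.09 for *Eci1* (adjusted p = 0.129) and 0.08 for *Cyp4a1* (0.16), and both were 0.08 without vehicle replicate 2 (0.215 and 0.24). With the slope taken over the dose in mg/kg, *Eci1* (adjusted p = 0.0367), *Cyp4a1* (0.0327) and *Ehhadh* (0.0237) passed. The share of all probe sets that passed with that slope is not given here. In the fit of 300 and 500 mg/kg against 0.1, 1 and 10 mg/kg 0 members were called, where 0.554% of probe sets were. *Cyp4a3* passed there after a second quantile normalization (−0.42, adjusted p = 0.039), with an intensity trend (−0.38, 0.0304), among only the probe sets above the median (−0.38, 0.0375) and without 500 mg/kg replicate 3 (−0.45, 0.0315). The shares of all probe sets called in these settings are not given here.

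**Figure D2:**
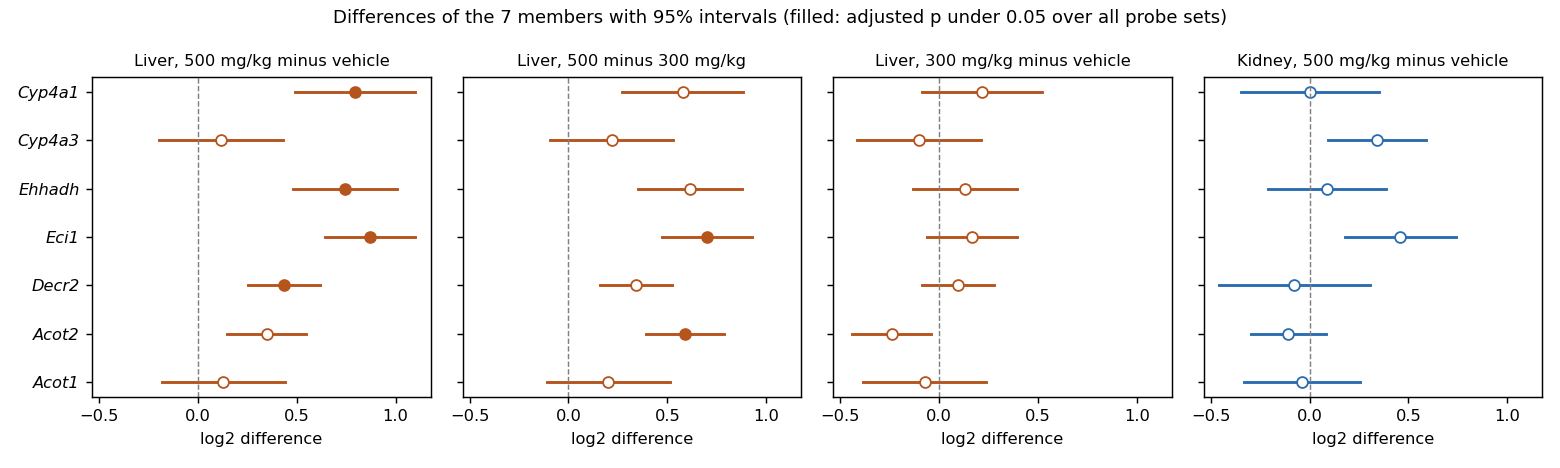
Log2 differences of the 7 genes (x axis) with 95% intervals from limma in 4 comparisons, liver in brown and kidney in blue. Filled points have an adjusted p below 0.05 over all probe sets. Filled points appear for *Cyp4a1*, *Ehhadh*, *Eci1* and *Decr2* at 500 mg/kg against vehicle and for *Eci1* and *Acot2* at 500 against 300 mg/kg.

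Among the 4 genes that rose, values over the livers were correlated in all 6 pairs. Over the 27 liver arrays, which share the dose groups, *Eci1* and *Decr2* had r = 0.87, *Ehhadh* and *Decr2* 0.86, *Cyp4a1* and *Ehhadh* 0.83, *Ehhadh* and *Eci1* 0.81, *Cyp4a1* and *Eci1* 0.79, and *Cyp4a1* and *Decr2* 0.70. After each group's mean was subtracted these pairs had, in the same order, r = 0.63, 0.72, 0.52, 0.45, 0.40 and 0.29. *Cyp4a3* had r from −0.15 to 0.49 against the other members over all arrays, and from 0.03 to 0.58 after group means were subtracted, the highest with *Acot2* (0.58) and *Decr2* (0.52). In the vehicle group replicate 1 was the highest array for all 7 genes. These correlations describe the arrays and are not tests.

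**Figure D3:**
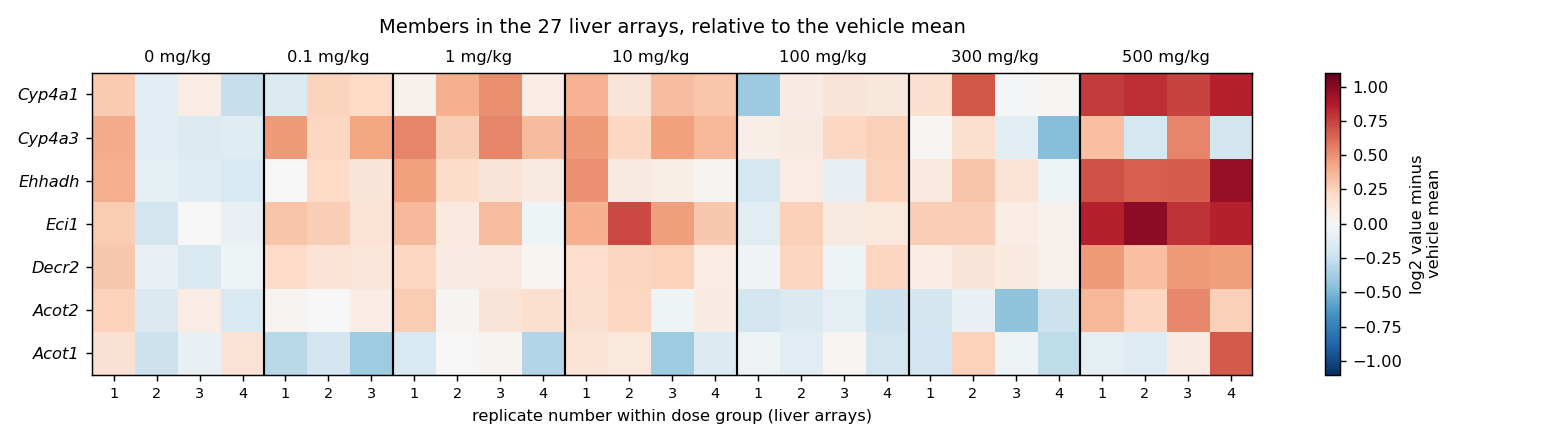
Log2 value of each gene (rows) minus its vehicle mean in each of the 27 liver arrays (columns, by dose and replicate number), red for higher and blue for lower. The 500 mg/kg columns are red for *Cyp4a1*, *Ehhadh*, *Eci1*, *Decr2* and *Acot2*, vehicle replicate 1 is red for all 7 genes, and *Cyp4a3* is red from 0.1 to 10 mg/kg.

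The genes most like these 4 in liver were found by correlation with the mean of their standardised values over the 27 arrays. *Sord*, which encodes sorbitol dehydrogenase, came first (r = 0.84), followed by the glutathione transferase *Gsta4* (0.79) and by *Tmem14c*, *Mgll*, *Gpx4*, *Hspd1*, *Timm10b* and *Hsd17b11* (0.78 each). At 500 mg/kg against vehicle *Tmem14c* rose by 0.44 (adjusted p = 0.00719) and *Mgll* by 0.57 (0.0265), while *Sord* differed by 0.28 (0.0597) and missed the threshold. Without vehicle replicate 2 *Tmem14c* gave 0.40 (0.0498) and *Sord* 0.27 (0.192). The likeness score includes the top-dose arrays, so it partly repeats the dose response.

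Among other genes of fatty acid oxidation and PPARA action, 92 were measured, and at 500 mg/kg against vehicle 1 rose and 0 fell, where 0.177% of all probe sets were called. It was *Mgll*, the monoglyceride lipase, which went from 9.68 ± 0.16 (SD, n = 4) to 10.25 ± 0.20 (n = 4). It passed in 2 of the 8 fits with 1 array left out and missed the threshold without vehicle replicate 2 (0.51, adjusted p = 0.104). Of its other 3 probe sets 1 passed (0.67, adjusted p = 0.0425) and the others gave 0.51 (0.137) and −0.07 (0.933). Of the 92 genes 67 had positive differences, with a median of 0.09 against 0.01 over all genes. Without vehicle replicate 2, 63 of the 92 were positive, with a median of 0.08 and 0 called. *Acaa1a* and *Cyp4a2* are not analysed here.

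For peroxisomal beta-oxidation 20 genes were measured besides the members, 0 were called and the median difference was 0.06. Without vehicle replicate 2 the median was 0.05, with 0 called. *Hsd17b4*, the other peroxisomal multifunctional enzyme, differed by 0.21 (adjusted p = 0.362), *Ech1*, an isomerase of dienoyl-CoA, by 0.25 (0.542), the peroxisomal thioesterase *Acot8* by 0.20 (0.49), and the carnitine octanoyltransferase *Crot* by −0.33 (0.514). *Abcd3*, a fatty acid carrier of the peroxisomal membrane, differed by 0.04 (0.938), *Pex11a*, which acts in peroxisome division, by 0.06 (0.952), and the thioesterases *Acot3* and *Acot4* by 0.06 (0.934) and 0.20 (0.756). In this list 1 of 20 genes had a positive difference at 300 mg/kg against vehicle (median −0.09; 3 of 20 and −0.10 without vehicle replicate 2), and 18 of 20 did at 500 against 300 mg/kg (median 0.20). None of these differences passed singly. Both counts use the same livers at 300 mg/kg, so low values there enter both and the counts are not independent. Over all probe sets the median differences were −0.00 and 0.01 in these 2 comparisons.

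For omega-oxidation 8 other genes were measured, 0 were called and the median was 0.08, or 0.09 without vehicle replicate 2. They include *Cyp4a8*, a further CYP4A (0.31, adjusted p = 0.566), and the fatty aldehyde dehydrogenase *Aldh3a2* (0.14, 0.624). For mitochondrial beta-oxidation 19 were measured, 0 were called and the median was 0.11, or 0.10 without vehicle replicate 2. The carnitine steps gave −0.18 for *Cpt1a* (0.775), 0.11 for *Cpt2* (0.741) and 0.13 for *Slc25a20* (0.694). The acyl-CoA dehydrogenases *Acadm* and *Acadl* gave 0.12 (0.533) and 0.05 (0.893), the trifunctional protein subunits *Hadha* and *Hadhb* 0.11 (0.764) and −0.02 (0.979), and the acyl-CoA synthetase *Acsl1* 0.02 (0.97). Of 3 ketone body genes 0 were called, with or without vehicle replicate 2, and *Bdh1* differed by −0.09 (0.784).

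Among 30 other PPARA targets *Mgll* was the 1 that was called, and the median was 0.09. Without vehicle replicate 2, 0 of these 30 were called and the median was again 0.09. *Pdk4*, the kinase that holds back pyruvate dehydrogenase, differed by −0.45 (adjusted p = 0.643), *Angptl4*, an inhibitor of lipoprotein lipase, by −0.18 (0.86), and the pantetheinase *Vnn1* by −0.12 (0.847). The lipid droplet protein *Plin2* differed by 0.41 (0.41), the fatty acid transporter *Cd36* by 0.35 (0.6), the fatty acid binding protein *Fabp1* by 0.09 (0.728) and the transcription factor *Creb3l3* by −0.00 (0.997). The aquaglyceroporins *Aqp3* and *Aqp7* gave 0.20 (0.817) and −0.63 (0.362). The hormone *Fgf21* differed by 0.97 with an SE of 0.67 (0.727), and its vehicle livers alone spanned 6.50 to 7.68. *Ppara* itself read 4.51 to 6.73 in the vehicle livers and 4.37 to 6.81 at 500 mg/kg, a difference of 0.78 with an SE of 0.53 (0.726), and 0 of the 12 receptor and cofactor genes were called. Over 300 and 500 mg/kg against 0.1, 1 and 10 mg/kg *Mgll* (0.31, 0.0408) and the glycerol phosphate dehydrogenase *Gpd1* (0.33, 0.00496) rose, and over the dose levels *Gpd1* rose by 0.06 per level (0.0302) while the apolipoprotein gene *Apoa4* fell by 0.09 (0.0476). Without vehicle replicate 2 neither slope passed (*Gpd1* 0.06, 0.0579; *Apoa4* −0.09, 0.109). The other *Gpd1* probe set was not called in either comparison (0.18, 0.345, and 0.07 per level, 0.0655), nor were the other 3 of *Mgll* in the first (0.34, 0.097; 0.31, 0.0969; 0.02, 0.952). With 1 array left out, *Mgll* passed in 5 of 19 fits and *Gpd1* in 19 of 19 in the first of these comparisons, and in the trend *Gpd1* passed in 21 of 27 and *Apoa4* in 5 of 27. In the first comparison the dimmer probe sets of *Cpt1a* (−0.43, 0.0388) and *Acaa2* (−0.45, 0.00616) were also called, whereas the brighter ones were not (−0.30, 0.163, and 0.12, 0.698).

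**Figure D4:**
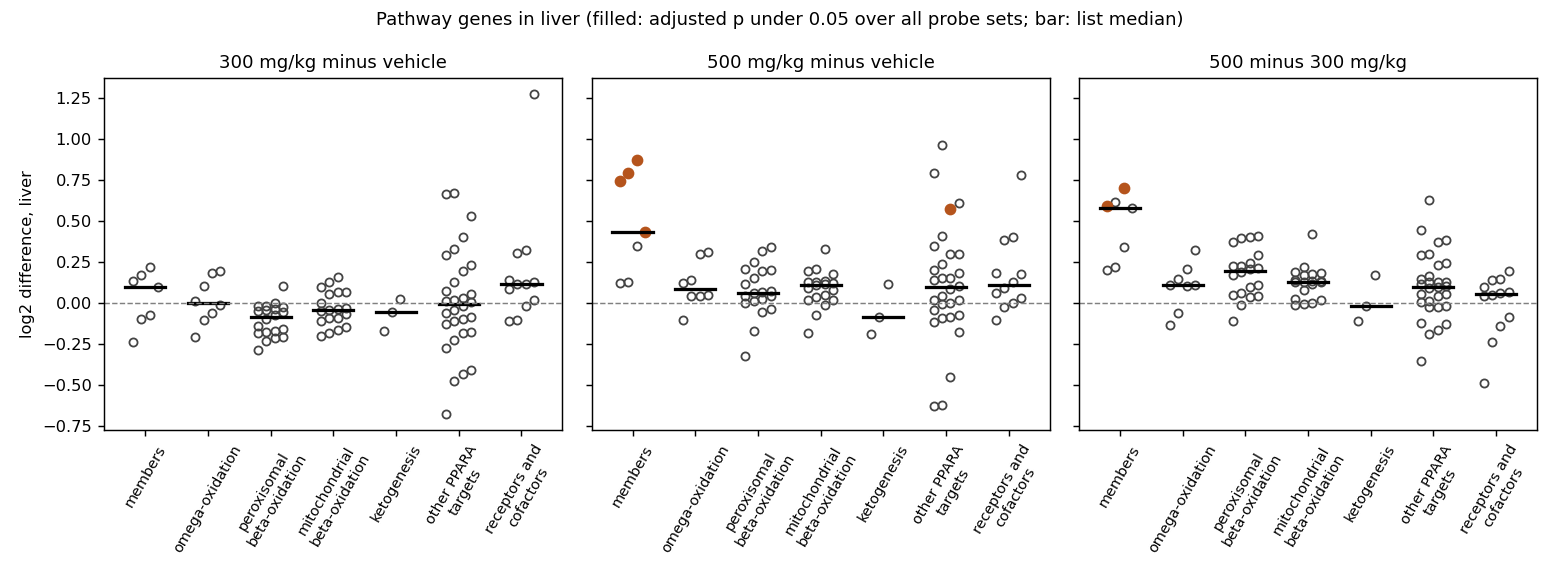
Log2 differences in liver (y axis) of the 7 members and of the other measured genes of 6 lists (x axis) at 300 mg/kg against vehicle, 500 mg/kg against vehicle and 500 against 300 mg/kg. Each circle is a gene, filled circles have an adjusted p below 0.05 over all probe sets, and bars are list medians. Outside the members only *Mgll* is filled, and most circles of the other lists lie within 0.5 of 0.

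Of the cell type marker lists 0 genes were called in the same livers at 500 mg/kg against vehicle. The level of a list, as its mean per array, lay wholly below vehicle at 500 mg/kg for 4 of the 13 lists and overlapped for the other 9. How often this occurs over the whole array was not counted, so these counts have no background to be read against. The median difference over all probe sets was 0.00. Markers of stellate cells and fibroblasts were lower in 10 of 10 genes (median −0.39), with levels of 7.20 to 7.61 in vehicle and 6.80 to 7.05 at 500 mg/kg. Lymphocyte markers were lower in 6 of 6 genes (median −0.14; 5.27 to 5.38 and 5.08 to 5.24) and endothelial markers in 5 of 6 (median −0.15; 8.01 to 8.14 and 7.90 to 8.00). Hepatocyte markers were lower in 5 of 7 (median −0.03; 13.88 to 13.91 and 13.80 to 13.86). Pericentral hepatocyte markers, the zone where CYP4A is high, were higher in 6 of 7 genes (median 0.25; array means 7.83 to 8.27 in vehicle and 8.18 to 8.31 at 500 mg/kg). Without vehicle replicate 2 the medians were −0.28 for stellate cells and fibroblasts, −0.11 for lymphocytes, −0.15 for endothelium, −0.03 for hepatocytes and 0.26 for pericentral hepatocytes, with 0 genes called. The pericentral group mean was 8.01 in vehicle and 8.21, 8.34, 8.09, 8.30, 8.065 and 8.24 in order from 0.1 to 500 mg/kg. It was thus higher at 1 and 100 mg/kg than at 500 mg/kg. The stellate cell and fibroblast mean was 7.35 in vehicle, 7.02 to 7.26 from 0.1 to 100 mg/kg, 6.88 at 300 mg/kg and 6.95 at 500 mg/kg. The part of the marker lists in the rise of the 4 genes was not tested, and in bulk tissue fewer cells of a type and less RNA per cell cannot be told apart.

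In kidney 0 of the 7 genes were called in any comparison, as was no other probe set (0%), and 3131 probe sets had an unadjusted p under 0.05 in limma at 500 mg/kg against vehicle. At that dose the members' differences ran from −0.11 to 0.46, with a median of 0.00 against −0.04 over all genes. *Eci1* read 10.87, 10.49 and 10.48 in the vehicle kidneys and 11.29, 10.87 and 11.06 at 500 mg/kg, a difference of 0.46 (SE 0.13, adjusted p = 0.36). The groups met at 10.87, the lowest top-dose kidney and the highest vehicle kidney. *Cyp4a3* read 11.38, 10.84 and 11.08 in vehicle and 11.42, 11.43 and 11.47 at 500 mg/kg, a difference of 0.34 (SE 0.12, adjusted p = 0.378). Its top-dose kidneys lay above all vehicle kidneys, alone among the 7 genes, as for 7% of all probe sets.

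Both kidney differences rested on the vehicle arrays. Without vehicle replicate 1 they passed, at 0.59 for *Eci1* (adjusted p = 0.0322) and 0.48 for *Cyp4a3* (0.0294). How many of all probe sets passed in that fit is not given here. Without replicate 2, the array with *Xist*, the differences were 0.40 and 0.21 (0.891 each). The fat cell gene *Adipoq* read 5.28, 6.40 and 6.32 in the 3 vehicle kidneys and 4.94 to 7.99 over all kidneys, and the 8 proximal tubule markers were lower at 500 mg/kg in 8 of 8 genes (median −0.28, 0 called; 6 of 8 and −0.23 without vehicle replicate 2); their part was not tested. *Cyp4a1* (0.00), *Ehhadh* (0.09), *Decr2* (−0.08), *Acot2* (−0.11) and *Acot1* (−0.04) had adjusted p of 0.718 to 0.997. Without vehicle replicate 2 these 5 were 0.12, −0.00, −0.06, −0.12 and −0.09, and 0 members and 0 probe sets were called in kidney at any dose. At 1 mg/kg, where replicate 1 is the array with high *Alb*, *Cyp4a1* read 10.00 in that array and 9.89 in the other, and its difference from vehicle was −0.40 (adjusted p = 0.713), −0.45 (0.999) without that array and −0.28 (0.931) without vehicle replicate 2.

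**Figure D5:**
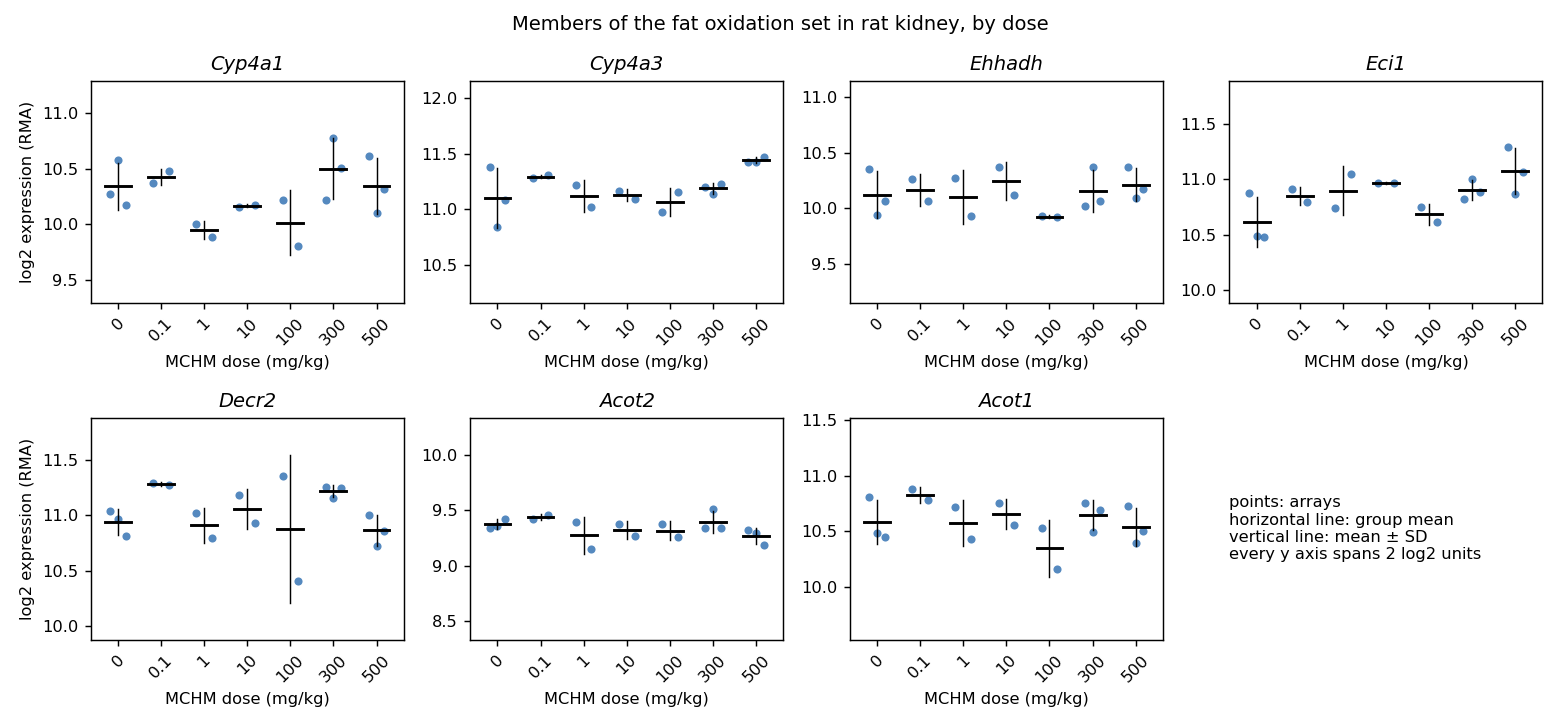
Log2 expression of the 7 genes in kidney (y axis, each spanning 2 log2 units) at each dose of MCHM in mg/kg (x axis, dose groups in order and not to scale). Points are arrays, horizontal lines group means and vertical lines the mean ± SD. *Eci1* and *Cyp4a3* have their highest group means at 500 mg/kg, 11.07 and 11.44, and the other genes show no order by dose.

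Subtracting the kidney difference at 500 mg/kg from that in liver gave 0.79 for *Cyp4a1* (SE 0.23, adjusted p = 0.153), 0.66 for *Ehhadh* (0.172), 0.51 for *Decr2* (0.258), 0.46 for *Acot2* (0.168), 0.41 for *Eci1* (0.381), 0.17 for *Acot1* (0.884) and −0.22 for *Cyp4a3* (0.813). So 0 members were called, where 0.029% of probe sets were. The difference from vehicle in liver was not shown to be unlike the difference from vehicle in kidney. With array weights, for which no share over all probe sets is given here, *Cyp4a1* (0.82, adjusted p = 0.0269), *Ehhadh* (0.62, 0.0439) and *Acot2* (0.52, 0.0147) passed. Without both replicate 2 vehicle arrays, a setting added after the data were seen, the differences were 0.63, 0.71 and 0.41 for these 3 genes (adjusted p 0.529 to 0.669), and 0 members were called.

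In level, *Acot1* lay higher in all kidney arrays than in any liver array, as for 17.4% of all probe sets, and *Ehhadh* lay higher in all liver arrays than in any kidney array, as for 11.1%. The *Ehhadh* range was 10.66 to 11.81 in liver and 9.92 to 10.37 in kidney, and the other 5 genes overlapped between the organs. Whether both organs were normalized together is not given in the sources used here, so these are levels on a scale that may differ by organ. Over the 17 kidney arrays the closest pair of members was *Decr2* and *Acot1* (r = 0.79), and *Eci1* and *Decr2*, the closest pair in liver, had r = 0.18. The genes most like the 4 risen liver genes in kidney were *Patj* (r = 0.86), *Cyp2e1*, *Man1a1* and *Adtrp* (0.85 each) and *Rtraf* (0.83), and 0 of these 5 were called at 500 mg/kg.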

How the data were processed

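The authors deposited 1 table of log2 values for 44 Affymetrix Rat Genome arrays, made with RMA per the submitters' processing notes. RMA corrects background, quantile normalizes the arrays and combines probes into probe sets. Its version and chip definition, and whether the organs were normalized together, are not given here. Quantile normalization hides a shift shared by most transcripts. The design text says that arrays showing batch effects had been taken out by the submitters, and those are not used here. Of 31099 probe sets 57 controls were left out. Of the 31042 tested 20826 have 1 symbol, 436 several and 9780 none, and 20758 were matched by gene ID to a RefSeq table (GRCr8).

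With limma 3.58.1 in R 4.3.3 the 7 dose groups of an organ were fitted together (lmFit, eBayes), and the organ difference in 1 fit of all arrays with no animal block, since the labels do not tie arrays to animals. Tests are two-sided. Tests of dose compare the spread between arrays that the titles call biological replicates. The members, the gene lists and the rule for named genes were chosen with earlier results of these data known: besides the members, genes of the pathway lists past the threshold (all if 5 or fewer, otherwise 3 each way), a fixed list given whatever their values, and the 8 liver and 5 kidney genes most correlated with the risen members. The fits were run on simulated data whose known changes were larger than the members' differences in liver. Recovery of changes as small as those of the members was not checked.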

Additional observations from a re-analysis of the deposited data

Results flagged for a closer look

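In groups of 4 livers, 42 groups of member values were checked for 1 array far from the rest (Dixon's ratio of gap to range), and 6 were found; chance alone flags about 1 in 20 groups. *Ehhadh* had 3 of them: vehicle replicate 1 at 11.25 (others 10.68 to 10.76), 10 mg/kg replicate 1 at 11.35 (others 10.88 to 10.95) and 500 mg/kg replicate 4 at 11.81 (others 11.51 to 11.55). *Cyp4a3* read 11.43 in vehicle replicate 1, against 10.87 to 10.90 in the others. *Cyp4a1* read 10.49 in 100 mg/kg replicate 1, against 10.98 to 11.03. *Decr2* read 10.59 in 500 mg/kg replicate 2, against 10.72 to 10.73.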

How the results depend on the processing

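The settings changed were the probe sets tested (only those above the median), a second quantile normalization, an intensity trend, array weights, the replicate number as a block, only the 2 groups compared, a slope over mg/kg and leaving out each array. The count of members called at 500 mg/kg against vehicle in liver was 4 and became 0 with only the 2 groups compared, where *Eci1* had the smallest adjusted p of the 4 (0.0523), and 1 to 4 with 1 array left out. At 500 against 300 mg/kg it was 2 and became 0 to 2 with 1 array left out. For 300 and 500 against 0.1, 1 and 10 mg/kg it was 0 and became 1 among probe sets above the median, 1 after a second quantile normalization, 1 with an intensity trend and 0 to 1 with 1 array left out. The liver trend went from 0 to 3 with the slope over mg/kg. Kidney at 500 mg/kg went from 0 to 1 with array weights and to 0 to 2 with 1 array left out, and the organ difference at 500 mg/kg from 0 to 3 with array weights. Apart from the fits without vehicle replicate 2, the shares of all probe sets called in these settings are not given here. These counts therefore have no background to be read against. Of the differences followed through these settings (members called in at least 1 of them, and *Mgll*, *Gpd1* and *Apoa4*), 0 changed direction. They were kept for passing the threshold, so a steady direction was likely beforehand. Over all 7 members, leaving out vehicle replicate 2 changed the direction of up to 1 at a liver dose and up to 2 at a kidney dose. The replicate numbers were not taken to pair the arrays, since the labels do not say that they do. For same-numbered arrays the correlation of deviations ran from −0.14 to 0.23 in liver (median 0.02, against −0.01 for other pairs). In kidney it ran from −0.35 to 0.36 (median 0.06, against −0.06). In all, 12 of 27 liver and 7 of 15 kidney arrays were closest to their own number. Numbers without meaning would give about 6.75 and 5, so this is a hint from the data and not the design. With the replicate number as a block the count at 500 against 300 mg/kg became 1 (*Eci1*; *Acot2* had an adjusted p of 0.0538), and at 500 mg/kg against vehicle *Decr2* missed the threshold (0.0533), as it did after a second quantile normalization (0.0588). Where nothing else is stated, the cause was not tested. With 2 to 4 arrays a group the number of arrays limits every comparison. Whether the signal of a probe set lay above the background of the array was not tested.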
